A study of Mus musculus with 4 samples.

Results

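A set of 10 genes whose products bring fatty acids into muscle or release them from lipid was followed in mice that overexpress the nuclear receptor PPARbeta in muscle. They are Cd36, Slc27a1, Fabp3, Fabp4, Acsl1, Lpl, Angptl4, Vldlr, Pnpla2 and Lipe, a list of names that was drawn up with earlier results of these data known. A gene counted as measured when at least 1 probe set of the array carried its symbol and no other. This held for 9 of the 10, with 20 of the 22626 probe sets analysed and 9 of 12393 named genes. No probe set carried the symbol Acsl1 alone, so this acyl-CoA synthetase gene was not analysed here. The probe set of highest mean log2 signal stands for a gene, with its other probe sets given beside it.

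RNA came from the gastrocnemius, a calf muscle, of mice 6 weeks old. The MCK-PPARb group (2 arrays) carried a muscle-specific PPARbeta transgene, and the non-transgenic group (2 arrays) consisted of littermates with the wild-type genotype. MCK is the usual abbreviation of the muscle creatine kinase promoter, which is active in striated muscle fibres, so the transgene is not a model of the receptor in fat, vessel or nerve cells of the same sample. The labels do not give strain, sex, founder line or any PPAR ligand. Each array was taken as 1 mouse, since the titles speak of biological replicates, but nothing else states that the RNAs came from separate mice. If they did not, p-values would reflect technical spread.

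Muscle takes up fatty acids that lipoprotein lipase frees from circulating triglyceride at the capillary wall. Membrane proteins such as the one encoded by Cd36 carry them into the fibre, cytosolic binding proteins ferry them, and acyl-CoA synthetases trap and activate them. Triglyceride stored in droplets inside the fibre is cut in turn by adipose triglyceride lipase, the Pnpla2 product, and hormone-sensitive lipase, the Lipe product. PPARs are receptors for fatty acids, and several of these genes are known PPAR targets in muscle or fat.

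The overexpressed gene, Ppard, read 126049 and 98797 signal units in MCK-PPARb muscle, against 2169 and 2825 in non-transgenic muscle (45.1-fold, adjusted p = 0.000187 with limma), which is the direction of the labels. Signals are the deposited intensities on a linear scale, and the median was 513 and 454 on the MCK-PPARb arrays and 466 and 431 on the non-transgenic arrays. Non-transgenic replicate 1 stood apart at the top of the scale, where its 10 brightest probe sets held 4.11% of all signal, whereas the other 3 arrays had 2.29% to 2.71% there. The number of arrays limits the precision: an exact permutation test of 2 arrays against 2 cannot go below p = 0.333, so the tests below are limma's, which pools the spread over probe sets. Tests cover the 11313 probe sets and 6841 genes whose mean log2 signal lay above the median of all probe sets, at 444 signal units. Called means an adjusted p under 0.05.

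None of the 8 measured genes above that level was called, where 0.731% of the genes tested and 0.601% of the probe sets tested were. Angptl4 lay below it. The smallest adjusted p was that of Fabp3, at 0.0860. At an unadjusted p under 0.05 in limma stood 3 of the 8, Fabp3, Cd36 and Vldlr, where 10.9% of the genes tested stood there. Over all 9 genes, both MCK-PPARb signals exceeded both non-transgenic ones for 5 (Cd36, Fabp3, Lpl, Angptl4 and Lipe), where 20.9% of all named genes, dim ones included, did so. They lay below for 1 (Vldlr), where 17.2% of all named genes did so, and overlapped for 3 (Slc27a1, Fabp4 and Pnpla2). The median log2 difference of the 9 was 0.68, beside 0.046 for all named genes. Since the list was drawn up with earlier results of these data known, these counts and medians describe it and do not test it.

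**Figure D1:**
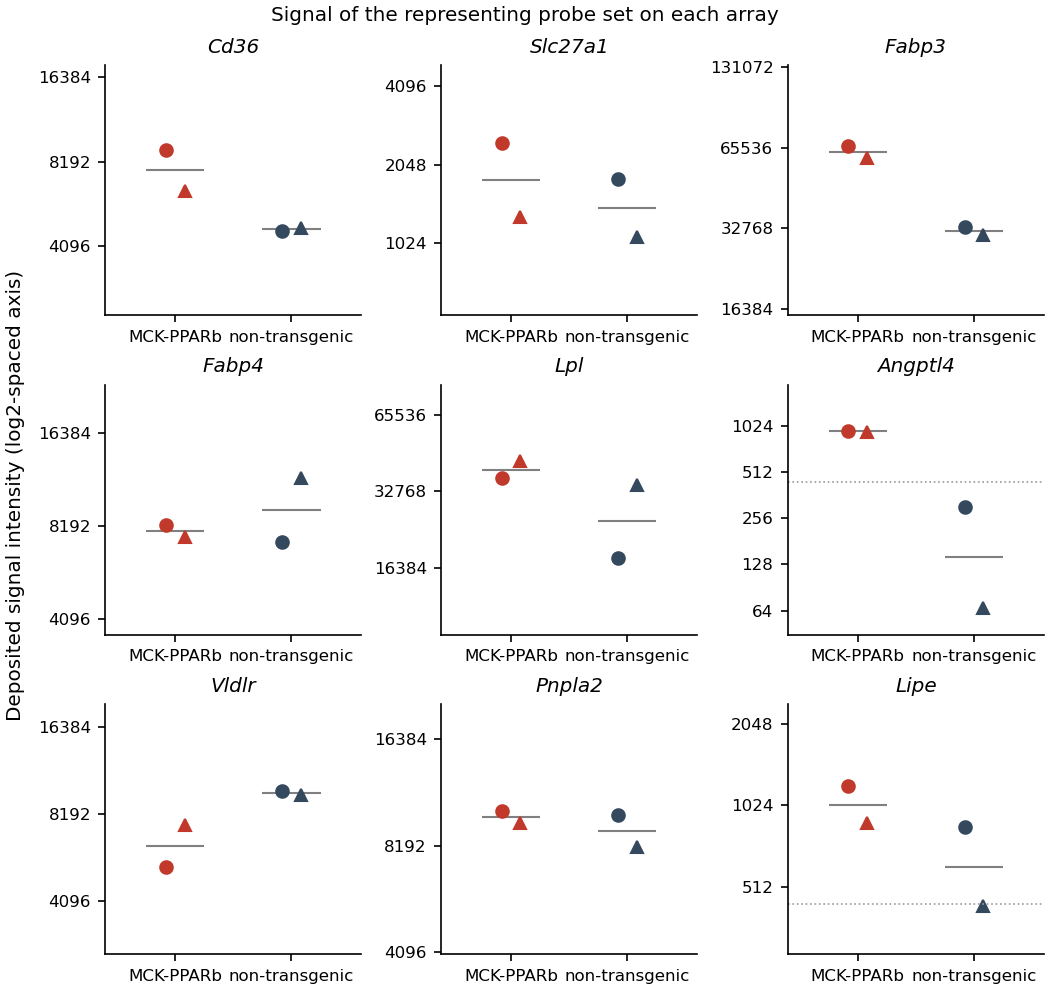
Signal of the representing probe set of each gene on the 4 arrays, on log2-spaced axes; circles are replicate 1, triangles replicate 2, grey bars the group means of log2 signal and dotted lines the level of 444 units, drawn where it falls in range. The Fabp3 arrays of a group lie close together, while the non-transgenic arrays of Lpl, Angptl4 and Lipe lie apart.

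Promoter sequence is shown for the genes with the smallest p among those of higher signal (Fabp3 and Cd36) and for the gene of lower signal (Vldlr), because PPARs bind as a pair with RXR to a direct repeat of the hexamer AGGTCA with 1 base between. RefSeq windows on GRCm38.p6 held 7 of the 10 genes, in 12 windows. Fabp4, Lpl and Angptl4 had none. Each run is the 250 bases upstream of an annotated start, 5′ to 3′ on the gene's strand, and capitals mark a stretch that differs from the repeat, on either strand, at no more than 2 of its 12 fixed letters.
Cd36, chr5:17835897-17836146, minus strand: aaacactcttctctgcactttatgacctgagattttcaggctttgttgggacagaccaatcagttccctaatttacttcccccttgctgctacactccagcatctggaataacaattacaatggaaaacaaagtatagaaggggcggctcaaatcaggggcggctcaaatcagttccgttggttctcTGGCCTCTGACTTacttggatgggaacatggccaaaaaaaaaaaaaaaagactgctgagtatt
Fabp3, chr4:130308488-130308737, plus strand: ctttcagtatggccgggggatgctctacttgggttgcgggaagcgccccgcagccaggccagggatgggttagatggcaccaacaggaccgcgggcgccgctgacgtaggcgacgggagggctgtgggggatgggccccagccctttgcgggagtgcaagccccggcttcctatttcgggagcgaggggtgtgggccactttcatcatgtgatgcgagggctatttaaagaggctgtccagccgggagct
Vldlr, first of its annotated starts, chr19:27216234-27216483, plus strand: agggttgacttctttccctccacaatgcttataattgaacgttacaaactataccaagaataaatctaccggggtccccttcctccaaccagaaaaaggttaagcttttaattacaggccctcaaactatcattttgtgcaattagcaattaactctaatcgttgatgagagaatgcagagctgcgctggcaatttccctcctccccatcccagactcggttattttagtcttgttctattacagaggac
The stretch in Cd36 begins 63 bases upstream of the start, reads as the repeat on the opposite strand, and has 2 mismatches, which 3.24% of the 32851 windows of the table match or better. Cd36 was also the only one of the 12 windows with an exact hexamer on either strand, 228 bases upstream, where 14% of all windows hold one. The best stretches of the Fabp3 and Vldlr windows shown had 4 mismatches, as few as in 74.5% of all windows. None of the 12 windows held the exact repeat, which 0.0335% of all windows hold. These matches describe letters in a short window and say nothing on binding.

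Of the uptake genes at the membrane, Cd36 encodes the main fatty acid translocase of muscle, and all of its 3 probe sets read higher in MCK-PPARb muscle with no overlap. Its brightest probe set read 9048 and 6451 in MCK-PPARb muscle, against 4630 and 4755 in non-transgenic muscle. Both MCK-PPARb arrays were high, replicate 1 more so, and the non-transgenic arrays nearly coincided. The log2 difference was 0.70 ± 0.22 (SE, n = 2 per group), or 1.63-fold with a 95% interval of 1.14 to 2.32, and it was not called (adjusted p = 0.295). Without MCK-PPARb replicate 1 the log2 difference was 0.46. The second probe set read 6532 and 5103 against 4672 and 4373 (log2 0.35, interval -0.13 to 0.83), and the dimmest 2594 and 2350 against 977 and 1513 (1.02, interval 0.37 to 1.67). The 3 estimates for this gene therefore spread from 0.35 to 1.02 with overlapping intervals.

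Slc27a1 encodes fatty acid transport protein 1, which couples uptake to activation. It read 2471 and 1292 in MCK-PPARb muscle, against 1802 and 1079 in non-transgenic muscle. The groups overlapped, and replicate 1 was the brighter array in each, by 1.91 times among MCK-PPARb arrays and 1.67 times among non-transgenic arrays. It differed by 0.36 ± 0.38 on the log2 scale (SE, n = 2 per group; adjusted p = 0.808), an interval from 0.687-fold to 2.39-fold, and its sign turned without MCK-PPARb replicate 1 (-0.11) or non-transgenic replicate 2 (-0.012).

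Among the binding proteins, Fabp3 encodes the form of heart and skeletal muscle and Fabp4 the form of adipocytes, also found in capillary endothelium and macrophages. Fabp3, with 1 probe set, read 66594 and 59991 in MCK-PPARb muscle, against 33104 and 31010 in non-transgenic muscle. Arrays of a group differed by at most 1.11 times, and the groups stood far apart beside that spread. The log2 difference was 0.98 ± 0.18 (SE, n = 2 per group), or 1.97-fold with an interval of 1.47 to 2.65. It ranked 77th of 6841 genes by p, and 3.71% of the genes tested had a larger absolute difference. Fabp3 passed with quantile normalization (adjusted p = 0.0273). Among the settings in which it did not pass were those with median centring (0.163) and without the intensity trend (0.246). With 1 array left out its log2 difference ran from 0.90 to 1.06, and no p-value is given where a group has 1 array.

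The 4 probe sets of Fabp4 did not share a direction. The brightest read 8234 and 7521 in MCK-PPARb muscle, against 7277 and 11715 in non-transgenic muscle, with both MCK-PPARb arrays between the non-transgenic ones. Its log2 difference was -0.23 ± 0.25 (SE, n = 2 per group, adjusted p = 0.812), an interval of 0.567-fold to 1.28-fold. The next read 3307 and 2829 against 2117 and 3020 (log2 0.27), and another 833 and 749 against 664 and 235 (1.001, interval -0.19 to 2.19). Averaged over its probe sets above 444 units, the gene was at 0.35, and without non-transgenic replicate 2 its brightest probe set was at 0.11. The remaining probe set was far below that level, at 23.1 and 22.4 in MCK-PPARb muscle and 30.0 and 105.8 in non-transgenic muscle, and was not tested.

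**Figure D2:**
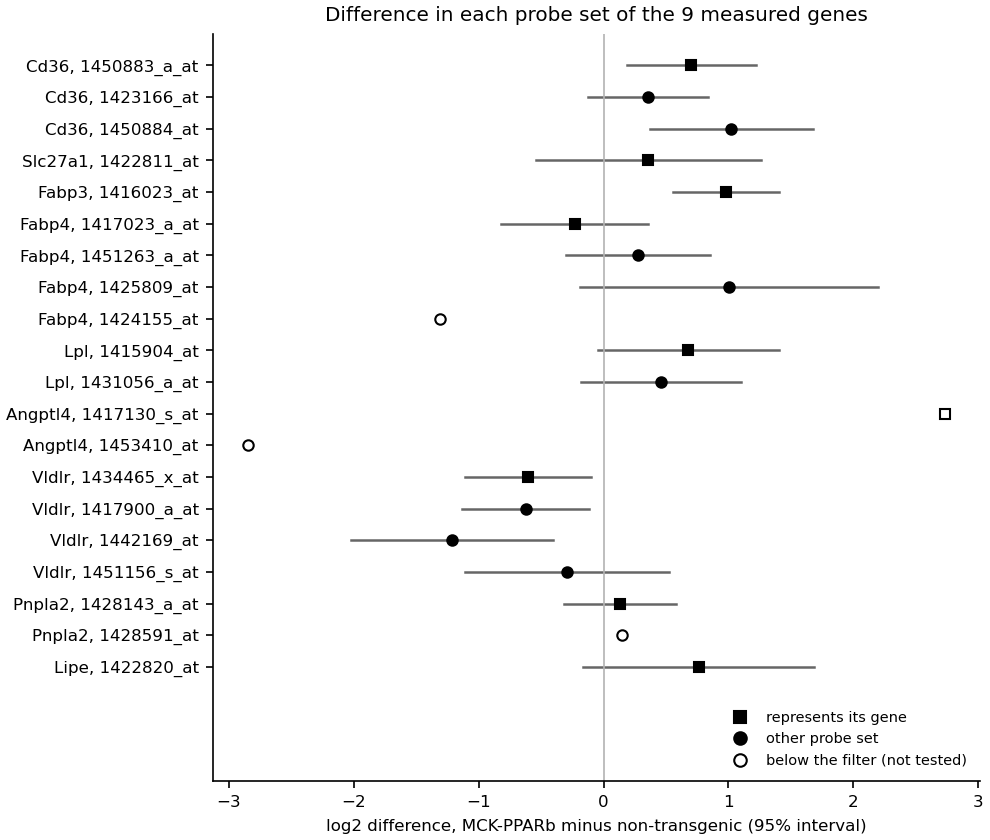
Log2 difference, MCK-PPARb minus non-transgenic, of each of the 20 probe sets, with the 95% interval of limma for the 16 above the filter. Squares represent their gene, and open symbols lie below the filter. The estimates of Cd36 (3 probe sets) lie right of 0 and those of Vldlr (4 probe sets) left of it, while Fabp4 and Angptl4 have probe sets on both sides.

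Lpl, Angptl4 and Vldlr act on circulating lipoproteins. Lpl encodes lipoprotein lipase, which muscle fibres and adipocytes make and hand to the capillary wall. It read 36927 and 43087 in MCK-PPARb muscle, against 17825 and 34803 in non-transgenic muscle. The MCK-PPARb arrays were the 2 highest, but non-transgenic replicate 1 was 1.95 times below replicate 2. The log2 difference was 0.68 ± 0.31 (SE, n = 2 per group), or 1.601-fold with an interval of 0.969 to 2.65, and was not called (adjusted p = 0.503). Set against non-transgenic replicate 1 alone it was 1.16, and against replicate 2 alone it was 0.20. Either fit leaves out the spread between the 2 non-transgenic arrays, so no test of it is given. The second probe set of Lpl read 10068 and 7656 against 4994 and 8145, and there the groups overlapped (log2 0.46, adjusted p = 0.611).

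Angptl4 encodes a secreted inhibitor of lipoprotein lipase and is a PPAR target in several tissues. Its brighter probe set read 953 and 941 in MCK-PPARb muscle, against 303 and 66.9 in non-transgenic muscle. The MCK-PPARb arrays agreed to 1.01 times, and the non-transgenic ones, both under 444 units, differed by 4.53 times. The log2 difference was 2.73 as deposited, a size that rests on dim signals, and 1.09 with signals under 444 units raised to that level. Tested together with all 22626 probe sets, it had an SE of 0.72 and an interval of 1.097 to 4.37, and was not called (adjusted p = 0.294). The other probe set went the opposite way, at 55.6 and 5.4 in MCK-PPARb muscle and 159 and 97.5 in non-transgenic muscle, all far below 444 units (log2 -2.84, adjusted p = 0.715 in the same fit). The brighter one carries the suffix _s_at, which the maker gives to probe sets that may match more than a single transcript. Neither the size nor the direction of the Angptl4 transcript is settled by these values.

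Vldlr encodes the very low density lipoprotein receptor, which binds triglyceride-rich particles beside the lipase. Its brightest probe set read 5363 and 7500 in MCK-PPARb muscle, against 9789 and 9491 in non-transgenic muscle. The MCK-PPARb arrays were both lower and lay further apart than the non-transgenic ones. On the log2 scale it differed by -0.60 ± 0.22 (SE, n = 2 per group), a fold of 0.658 with an interval of 0.464 to 0.933, and was not called (adjusted p = 0.363). Without MCK-PPARb replicate 2 it was -0.85, and without replicate 1 it was -0.36. The next probe set read 3592 and 4859 against 6767 and 6120 (log2 -0.62), and another 694 and 555 against 1094 and 1885 (-1.21, interval -2.02 to -0.40). Groups overlapped in the last one alone, at 707 and 545 against 927 and 624 (-0.29), so that 3 of 4 probe sets were lower with no overlap and the fourth had the same sign. The brightest of the 4 carries the suffix _x_at and the last one the suffix _s_at. With probe sets of either suffix left out, Vldlr was at -0.62.

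Of the lipases that empty the droplet, Pnpla2 showed no difference beyond the spread of its arrays. It read 10262 and 9489 in MCK-PPARb muscle, against 10007 and 8096 in non-transgenic muscle. It differed by 0.13 ± 0.19 on the log2 scale (SE, n = 2 per group, adjusted p = 0.869), with an interval of 0.803-fold to 1.498-fold. Its sign turned without non-transgenic replicate 2 (-0.020). A second probe set was dim and erratic, at 71.5 and 79.5 in MCK-PPARb muscle and 311 and 14.9 in non-transgenic muscle.

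Lipe read 1206 and 883 in MCK-PPARb muscle, against 850 and 436 in non-transgenic muscle. The lower MCK-PPARb array was only just above the higher non-transgenic one, and replicate 1 was the brighter array in both groups, as for Slc27a1. Lipe thus differed by 0.76 ± 0.40 on the log2 scale (SE, n = 2 per group), or 1.69-fold with an interval of 0.891 to 3.22 (adjusted p = 0.562). It was 0.28 without non-transgenic replicate 2 and 1.24 without non-transgenic replicate 1.

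**Figure D3:**
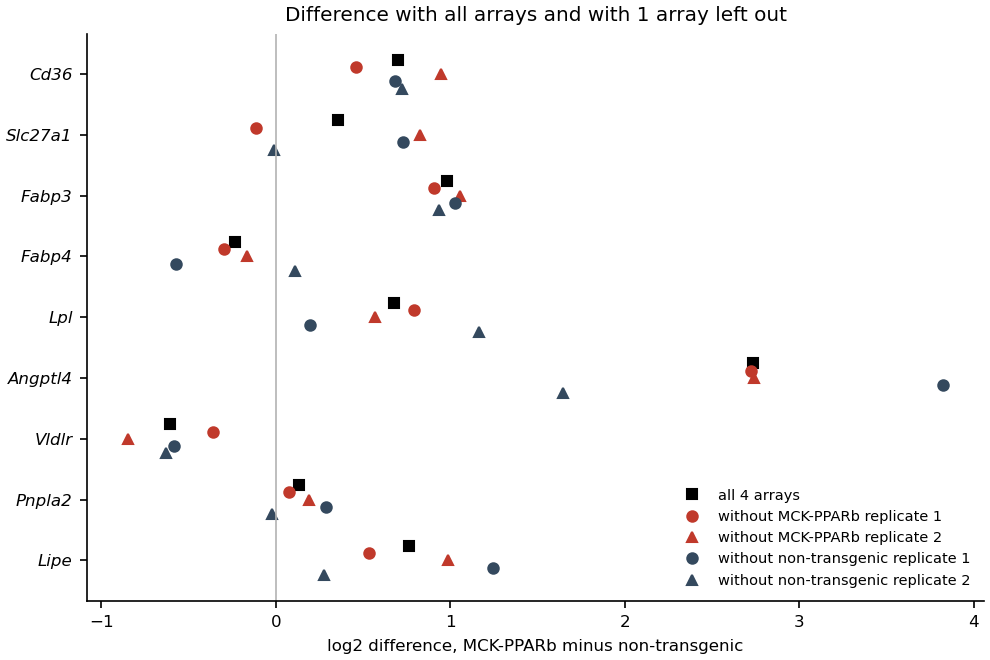
Log2 difference of the representing probe set of each gene with all 4 arrays (black squares) and with each array left out in turn (coloured symbols). Fabp3 stays within 0.90 to 1.06, whereas Lpl runs from 0.20 to 1.16, Lipe from 0.28 to 1.24 and Angptl4 from 1.64 to 3.82, and Slc27a1, Fabp4 and Pnpla2 cross 0.

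Other genes of the same pathway were read in 4 lists of 50 genes, of which 42 had a probe set and 25 lay above 444 units. None of the 25 was called, 3 (Sort1, Dbi and G0s2) were at an unadjusted p under 0.05 in limma, a share near the 10.9% of all genes tested, and their median log2 difference was -0.024, beside 0.011 for all genes tested. Among proteins of lipoprotein lipolysis and remnant uptake (5 tested), Sort1, a sorting receptor, read 5263 and 5245 in MCK-PPARb muscle, against 4233 and 3004 in non-transgenic muscle (log2 0.56, adjusted p = 0.444), and Scarb1, the high density lipoprotein receptor, differed by 0.18 (adjusted p = 0.845). Among other transport and binding proteins (6 tested), Slc27a4, fatty acid transport protein 4, differed by 0.46 (adjusted p = 0.566) and Dbi, the acyl-CoA binding protein, by -0.56 (adjusted p = 0.436).

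Of the other acyl-CoA synthetases and thioesterases, all 6 tested had a negative difference, with a median of -0.36, and 4 were lower with no overlap between groups, where 20.8% of all genes tested were. The widest were Acsl4, which prefers arachidonate (650 and 593 in MCK-PPARb muscle, against 936 and 982 in non-transgenic muscle, log2 -0.63, adjusted p = 0.509), and Acsl6 (-0.45, adjusted p = 0.572). Below 444 units and not tested, Acot1 (log2 0.73) and Acot2 (0.064) had positive differences and Acsbg1 (-0.42) a negative one, all with overlap. Of the lipid droplet proteins and lipase partners, 4 of 8 tested were higher with no overlap, where 22.2% of all genes tested were. None was lower with no overlap, and the median was 0.36. Mgll (-0.20) and Fitm1 (-0.23) had negative differences with overlap. G0s2, an inhibitor of the Pnpla2 product, read 1673 and 4450 in MCK-PPARb muscle, against 1070 and 1571 in non-transgenic muscle (log2 1.07 ± 0.45 SE, n = 2 per group, adjusted p = 0.462), with MCK-PPARb replicate 2 at 2.66 times replicate 1. Plin5, a droplet coat protein of oxidative tissue, read 677 and 652 against 432 and 426 (0.63, adjusted p = 0.564). The lists are described by counts and medians, and no list was tested as a whole.

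**Figure D4:**
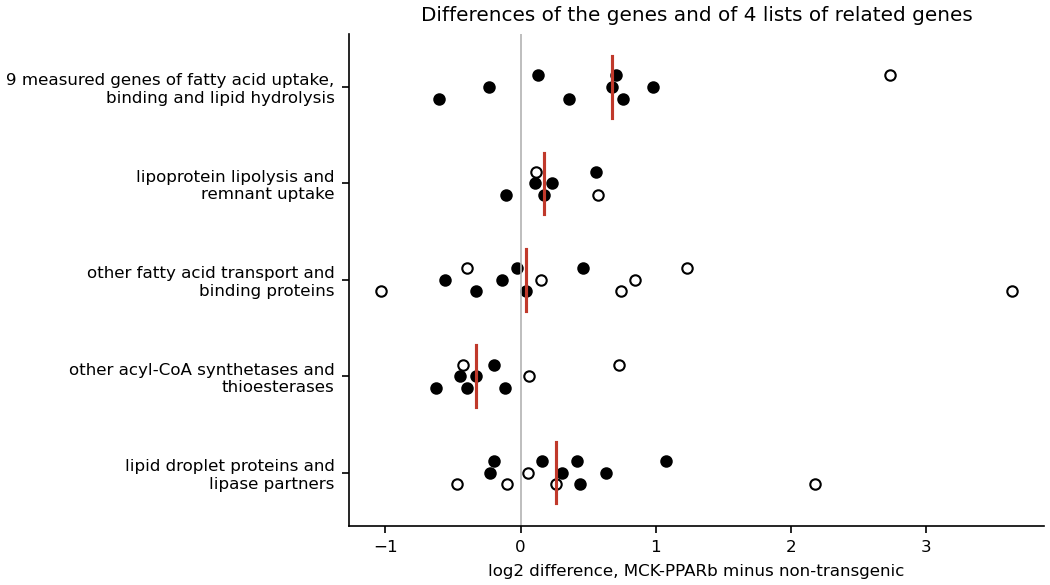
Log2 differences, MCK-PPARb minus non-transgenic, of the 9 measured genes and of 4 lists of related genes, with 1 symbol a gene, filled above and open below the filter, and a red bar at the median of each row. The row of acyl-CoA synthetases and thioesterases has its filled symbols left of 0.

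Whole muscle also holds fat, vessels, nerve and macrophages, and Cd36, Fabp4, Lpl, Angptl4, Pnpla2 and Lipe are expressed in fat. In bulk samples, fewer cells of a type and less RNA per cell cannot be told apart. Of 12 adipocyte markers, 9 had a probe set and 4 lay above 444 units, and their summed signal was 7670 and 7764 in MCK-PPARb muscle, against 4183 and 5655 in non-transgenic muscle. The groups did not overlap in that sum. Over all named genes, dim ones included, 20.9% were higher and 17.2% lower with no overlap. Of the 9 markers, 4 were higher and 1 (Lep) lower with no overlap, and the others overlapped. Among those that overlapped was Thrsp, above 444 units, at 1420 and 1209 against 631 and 1833. Adipoq, which encodes adiponectin, read 2567 and 3076 against 1151 and 1648 (log2 1.03, not called), and Retn, which encodes resistin, 1565 and 1387 against 805 and 652 (1.02, not called). Lep (55.7 and 67.2 against 131 and 86.8) and Pparg (51.0 and 42.5 against 50.1 and 117.5) were far below that level, and no marker was listed at 0. Both had negative differences, as did the dim marker Cidec (log2 -0.47). The sums were higher in MCK-PPARb muscle, as were the signals of Cd36, Fabp3, Lpl, Lipe and the brighter probe set of Angptl4, and the part of fat in those differences was not tested. The brightest probe set of Fabp4, the adipocyte form, and that of Pnpla2 overlapped between groups, with differences of -0.23 and 0.13. The other Fabp4 probe sets above 444 units were at 0.27, with overlap, and at 1.001, higher with no overlap.

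Of 13 endothelial markers, 12 had a probe set and all of these lay above 444 units, with a summed signal of 27192 and 29537 in MCK-PPARb muscle, against 33270 and 37915 in non-transgenic muscle. Aqp1, a water channel, gave the largest part of that gap, at 10086 and 11342 against 14423 and 18337. Of the 12 markers, 5 were lower with no overlap, where 20.8% of all genes tested were. None was higher with no overlap, where 22.2% of all genes tested were, and 7 overlapped, among them Pecam1 (log2 0.19) and Kdr (0.23). Vldlr, which endothelium also expresses, was lower as well, and Cd36 higher. Macrophage markers (10 of 10 with a probe set, 9 above 444 units) summed to 13296 and 12890, against 13711 and 11846, and overlapped. Of the 9, Adgre1 (log2 0.83) and Cd14 (0.56) were higher and C1qc (-0.42) lower with no overlap, and 6 overlapped. None of them was called, and the shares of all genes tested are the 22.2% and 20.8% above. Schwann cell markers (5 of 8 with a probe set, 3 above) summed to 30447 and 34168, against 18251 and 20115, and did not overlap. Pmp22 and Mbp made up most of that sum, while the dim markers Mag (447 and 398 against 463 and 460) and S100b (log2 -0.94) had negative differences. Defining markers of muscle fibres, all 14 of them measured and above 444 units, summed to 1514722 and 1349283 in MCK-PPARb muscle, against 2144650 and 1316195 in non-transgenic muscle, and the high value is that of the array that stood apart. Of the 14, 2 were higher and 2 lower with no overlap, where 22.2% and 20.8% of all genes tested were, and 10 overlapped. Slow troponin T, encoded by Tnnt1, read 14228 and 17419 against 4684 and 8784 (log2 1.30), and the slow myosin gene Myh7 17671 and 18456 against 7612 and 17025 (0.67), the 2 that were higher, as were Cd36, Fabp3 and Lpl. Mb, which encodes myoglobin, read 55956 and 60881 against 87332 and 81671 (-0.53). None of the 14 was called. The part of any of these cell or fibre types in the differences above was not tested.

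**Figure D5:**
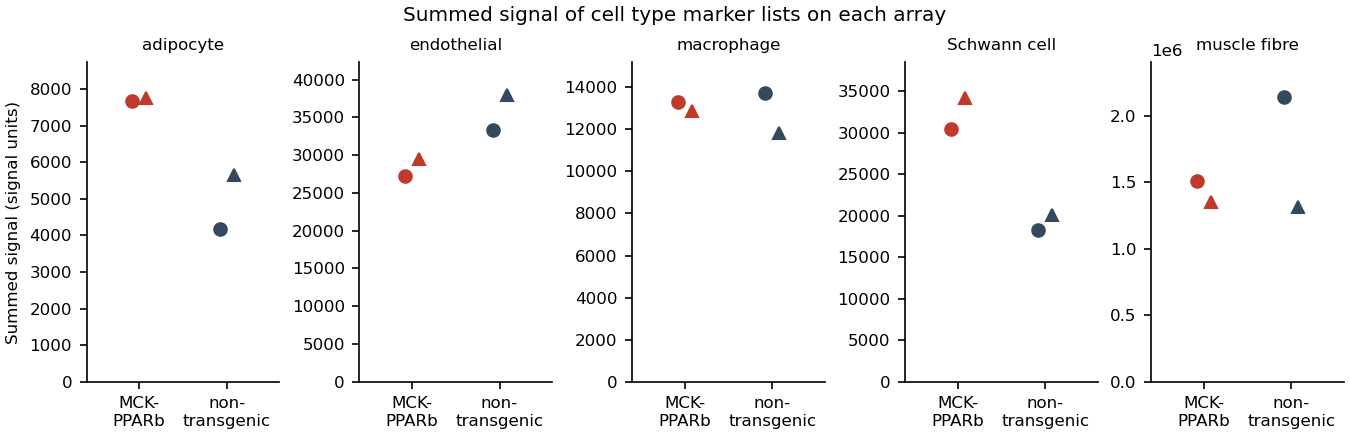
Summed signal, in signal units, of the markers of 5 cell types on each array, MCK-PPARb left of non-transgenic; circles are replicate 1 and triangles replicate 2, and each panel has its own scale from 0. The adipocyte and Schwann cell sums are higher and the endothelial sums lower on both MCK-PPARb arrays, and the muscle fibre sum is highest on non-transgenic replicate 1.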

How the data were processed

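The deposited values are linear signal intensities of 4 Affymetrix arrays, and per the submitters' processing notes the authors used MAS5 and GCOS, with no version stated. On every array the mean signal was 1501 once 2% of probe sets was trimmed from each end, so the deposited intensities were already scaled between arrays. No detection calls were used here.

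Of 22690 probe sets, 64 controls were left out. Of the other 22626, 20380 carried 1 symbol in the platform annotation, 691 several and 1555 were unnamed here. Symbols were matched by gene number for 20351 through the RefSeq table of GRCm38.p6.

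Signals were log2-transformed, and no pseudocount was added. Probe sets with a mean above the median of all were fitted with limma 3.58.1 in R 4.3.3 (lmFit, eBayes with an intensity trend, 2-sided, Benjamini-Hochberg over the 11313 probe sets). SEs and intervals are the moderated ones, with 5.38 prior and 2 residual degrees of freedom. The fit was also run on simulated data drawn from limma's own fitted variance model, with independent probe sets and no outlying array. That run checks the procedure and cannot test whether these arrays meet its assumptions. The members, lists and rules were chosen with earlier results of these data known. The named pathway genes are, per list, any called gene and the 2 further tested genes of widest difference without overlap. The 16 alternatives covered normalization, pseudocount, filter, moderation, a replicate block, each array left out, the threshold and the choice of probe set. Promoter windows come from RefSeq and were searched in Python 3.11.15.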

Additional observations from a re-analysis of the deposited data

How the results depend on the processing

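The filter cut-off, the moderation, the replicate block and the threshold cannot alter a gene's difference, so those signs were fixed in advance. With them counted in, 128 of 133 differences of the 9 genes kept their sign over the alternatives. The 5 that turned were Slc27a1 in 2 of the fits with 1 array left out, which ran from -0.11 to 0.83, Fabp4 in 1 of them (-0.57 to 0.11) and with the mean of its probe sets (0.35), and Pnpla2 in 1 of them (-0.020 to 0.29). The 133 do not include Angptl4 with the suffixes _s_at and _x_at left out. There it would rest on its dim probe set alone, which has the opposite sign (log2 -2.84). Of the 9 genes, 1 was called with quantile normalization, with a replicate block and at an adjusted p under 0.1, in each case Fabp3, and 0 to 2 were called with 1 array left out. None was called with the other alternatives run, no filter included. In the pathway lists the replicate block called 1 gene, G0s2 (adjusted p = 0.0361), and the other alternatives none. Over all probe sets 68 were called, and 116 with median centring, 21 without the intensity trend, 377 with the replicate block, 150 at an adjusted p under 0.1 and 36 to 159 with 1 array left out. Same-numbered arrays deviated together at r = 0.28 over the tested probe sets, which are not independent, and no label ties the numbers to a shared litter or day. The causes of these shifts were not tested. With 1 array left out, the lone array of a group is assumed to vary like the other group. The counts of calls from those fits rest on that assumption and are not a test of any gene. For single genes only the differences are given from those fits. Lipe was not tested with the filter at the 75th percentile, and Angptl4 was tested only with no filter. Low signal over background limits Angptl4 and the dim probe sets of Fabp4 and Pnpla2.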
